A study of Arabidopsis thaliana with 6 samples.

Results

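Photosynthesis in Arabidopsis depends on nuclear genes whose products are imported into the chloroplast, and 49 of them were followed here in young flower buds. They were taken by name from a list of 6 subgroups. These were the antenna proteins of photosystem I (LHCI, 6 genes), the antenna proteins of photosystem II (LHCII, 14 genes), nuclear subunits of photosystem II (10 genes) and photosystem I (12 genes), plastocyanin (2 genes), and the small subunit of Rubisco with Rubisco activase (5 genes). The count tables held 27628 Arabidopsis genes and a row for the transgene described below. All 49 members were among the 18642 genes, the transgene included, that passed the filter on low counts.

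The antenna proteins bind chlorophyll and pass light energy to the photosystems, which move electrons from water to ferredoxin. Plastocyanin carries electrons to photosystem I, and Rubisco fixes CO2 in the stroma with its activase keeping it free of inhibitors. In leaves, many of these genes are switched on by light and follow the circadian clock, and the LHCB genes, long known as CAB genes, are classic morning-to-midday outputs of that clock. In flower buds the green sepals and other chloroplast-containing tissues express them.

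The transgenic buds carried BnA9::BnMAGL8.1 in the Col background (Col-0 in the study's methods). In this construct BnaC.MAGL8.a, a monoacylglycerol lipase gene from rapeseed, is driven by a promoter, BnA9, of the tapetum, the cell layer that lines the anther. They were set against wild type buds of the same ecotype, with 3 libraries of each genotype. Plants of both genotypes grew at 23 °C in days of 16 h light and nights of 8 h, and whole young buds with anthers of stages 6 to 9 were taken. The sources used here give neither the hour of sampling, nor the number of plants in a library, nor which transgenic line or lines each library came from, although the methods speak of lines in the plural. The p-values therefore measure only the spread between these 6 libraries, and a smaller number of green cells cannot be told apart from less RNA per green cell.

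The libraries held 13519945 to 13967184 counts in the transgenic and 13556715 to 14729927 in the wild type buds. The transgene had 853 to 9594 counts in the transgenic libraries and 0 in each wild type library. The floral organ genes AP1, AP3, PI, AG and SEP3 were present in every library, with summed levels of 667 to 770 CPM (counts divided by the library size after TMM scaling) in the transgenic and 664 to 732 CPM in the wild type buds. The pollen genes VGD1 and PPME1 together did not exceed 2.29 CPM in a transgenic or 6.32 CPM in a wild type library. The tapetum genes A9, AMS and MS2 summed to 317 to 709 CPM in the transgenic and 505 to 1012 CPM in the wild type buds. Over all genes tested, 3 were called at an adjusted p under 0.05 (edgeR's quasi-likelihood test with Benjamini-Hochberg adjustment), which is 0.0161% of them. The genes tested include the transgene, whose own result is not given here, so the 3 need not all be Arabidopsis genes.

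Together the 49 genes took 10.89%, 9.828% and 7.225% of all counts in transgenic replicates 1, 2 and 3. In wild type replicates 1, 2 and 3 they took 8.018%, 7.891% and 10.02%. The ranges of the genotypes overlapped, and the lowest and the highest share were both in transgenic libraries.

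Levels between genes were compared as CPM per kb of the longest RefSeq transcript, as a mean of the 6 libraries. The Rubisco small subunit gene RBCS1A (AT1G67090) was first, at 10043 ± 1648 CPM per kb (SD, n = 6), and it ranked first in each library. LHCB1.3 (AT1G29930), which encodes a protein of the main LHCII trimer, followed with 7401 ± 2143 CPM per kb, and RBCS3B (AT5G38410) with 6229 ± 1056 CPM per kb (SD, n = 6 each). LHCB1.3 lay above RBCS3B in 4 of 6 libraries, so these neighbours in the order were not separated in every library. LHCB1.5 (AT2G34420), at 4224 ± 1679 CPM per kb, lay above PSBR, at 3863 ± 851 CPM per kb (SD, n = 6 each), in 3 of 6 libraries. At the low end were PSAG with 95.9 ± 14.96, LHCA6 with 63.7 ± 11.04 and LHCB1.4 with 33.0 ± 32.21 CPM per kb (SD, n = 6 each). PSAG shares 58.8% of its 50-base stretches with an overlapping gene on the opposite strand, so its level is uncertain. The level of LHCB1.5 is uncertain too, since it shares 100% of its stretches with other transcripts and 2 genes overlap it on the opposite strand.

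LHCB1.4 thus stood far below LHCB1.3, although both encode LHCB1 proteins. The median per subgroup was 1302 CPM per kb for LHCI, 1199 for LHCII, 1383 for photosystem II, 781 for photosystem I, 1014 for plastocyanin and 1812 for Rubisco. The widest range within a subgroup was that of LHCII, between 33.0 and 7401 CPM per kb.

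The LHCB1 genes are near-identical copies, which matters for how their reads can be assigned. LHCB1.2, LHCB1.1 (AT1G29920) and LHCB1.3 lie side by side on chromosome 1, with LHCB1.1 at chr1:10474656-10475969 (minus strand) and LHCB1.3 at chr1:10477885-10479114 (plus strand) in TAIR10.1. Their coding sequences are 95.6% to 96.4% identical. LHCB1.5 and LHCB1.4 (AT2G34430, chr2:14524607-14525918, plus strand) form another pair on chromosome 2, with 91.4% identity. Of all stretches of 50 bases in its transcripts, LHCB1.1 shares 20.5%, LHCB1.3 shares 22.0% and LHCB1.4 shares 13.7% with transcripts of other genes on either strand. Counts of these copies are uncertain to that extent, since neither strand nor the handling of multiply mapped reads in the counting is given in the sources.

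The bases upstream of 4 genes are shown because these genes behaved differently across the libraries. LHCB1.1 and LHCB1.4 had the widest ranges among the members, LHCB1.3 is the close copy of LHCB1.1 with a much smaller range, and RBCS2B went against the LHCB genes in several libraries. Each sequence is the 250 bases before the RefSeq gene start in TAIR10.1, read 5′ to 3′ on the strand of the gene. Capitals mark matches on either strand to 4 motifs, none of which contains another. These were the G-box (CACGTG), the I-box (GATAAG), the evening element (AAAATATCT) and a binding site of the clock protein CCA1 (AAAAATCT). Only these exact letters were searched, so other forms of a site are not marked. RefSeq's gene start is the outermost one annotated, so the window can lie upstream of the start used in buds.
LHCB1.1 (chr1:10475970-10476219, minus strand): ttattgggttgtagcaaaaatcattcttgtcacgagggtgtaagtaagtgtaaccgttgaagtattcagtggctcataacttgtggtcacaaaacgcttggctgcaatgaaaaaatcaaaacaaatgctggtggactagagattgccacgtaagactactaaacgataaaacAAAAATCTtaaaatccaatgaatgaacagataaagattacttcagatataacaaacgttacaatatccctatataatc
LHCB1.3 (chr1:10477635-10477884, plus strand): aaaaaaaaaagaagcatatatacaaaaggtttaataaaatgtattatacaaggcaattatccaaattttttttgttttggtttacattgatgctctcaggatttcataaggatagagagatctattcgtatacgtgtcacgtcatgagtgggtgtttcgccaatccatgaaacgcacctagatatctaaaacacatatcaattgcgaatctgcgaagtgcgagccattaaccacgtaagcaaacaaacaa
LHCB1.4 (chr2:14524357-14524606, plus strand): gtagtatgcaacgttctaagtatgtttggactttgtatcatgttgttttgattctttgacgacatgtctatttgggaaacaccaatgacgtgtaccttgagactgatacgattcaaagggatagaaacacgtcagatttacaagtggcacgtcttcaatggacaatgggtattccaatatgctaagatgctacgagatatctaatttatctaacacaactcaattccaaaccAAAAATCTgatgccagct
RBCS2B (chr5:15382072-15382321, minus strand): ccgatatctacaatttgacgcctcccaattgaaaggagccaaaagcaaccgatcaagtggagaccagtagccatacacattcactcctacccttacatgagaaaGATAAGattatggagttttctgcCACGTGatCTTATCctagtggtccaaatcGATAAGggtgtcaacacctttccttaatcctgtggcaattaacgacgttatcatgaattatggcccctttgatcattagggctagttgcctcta

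In these windows, LHCB1.1 held a CCA1 site 78 to 71 bases before the gene start and LHCB1.4 held one 18 to 11 bases before it. LHCB1.3 held none of the 4 motifs in the letters searched. RBCS2B held a G-box and 3 I-boxes, motifs known from light-regulated promoters, and no CCA1 site. The members with the next widest ranges after LHCB1.1 and LHCB1.4 had no CCA1 site either. These were LHCB2.3, LHCB2.1 and LHCB1.2, at 7.51, 7.28 and 6.63 between the highest and the lowest library. A site was also present for LHCA4, PSAN and PSAO, whose ranges were 2.53, 1.99 and 1.81. Over all 49 members, 5 (10.2%) had the CCA1 site AAAAATCT in the window, against 6.69% of 27443 protein-coding genes. The G-box was present in 9 members (18.4%), against 6.49% of those genes, and the I-box in 12 members (24.5%), against 12.3%. The evening element was present in 1 member (2.04%), against 2.36%. A match describes the letters in the window only.

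The LHCII genes varied widely between libraries of 1 genotype. The ratio of the highest to the lowest of the 6 libraries had a median of 3.26 for the 14 LHCII genes, with a range of 1.59 to 27.2. It was 1.74 for LHCI, 1.51 for photosystem II, 1.52 for photosystem I, 1.48 for plastocyanin and 1.53 for Rubisco. Over all genes tested the median was 1.75. A ratio over 2 was found for 10 of the 14 LHCII genes (71.4%), 2 of the 6 LHCI genes, 1 of the 5 Rubisco genes and none of the photosystem and plastocyanin genes, against 38.1% of all genes tested. Within the 3 transgenic libraries alone the median ratio of the LHCII genes was 3.14, and within the 3 wild type libraries it was 2.17.

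**Figure D1:**
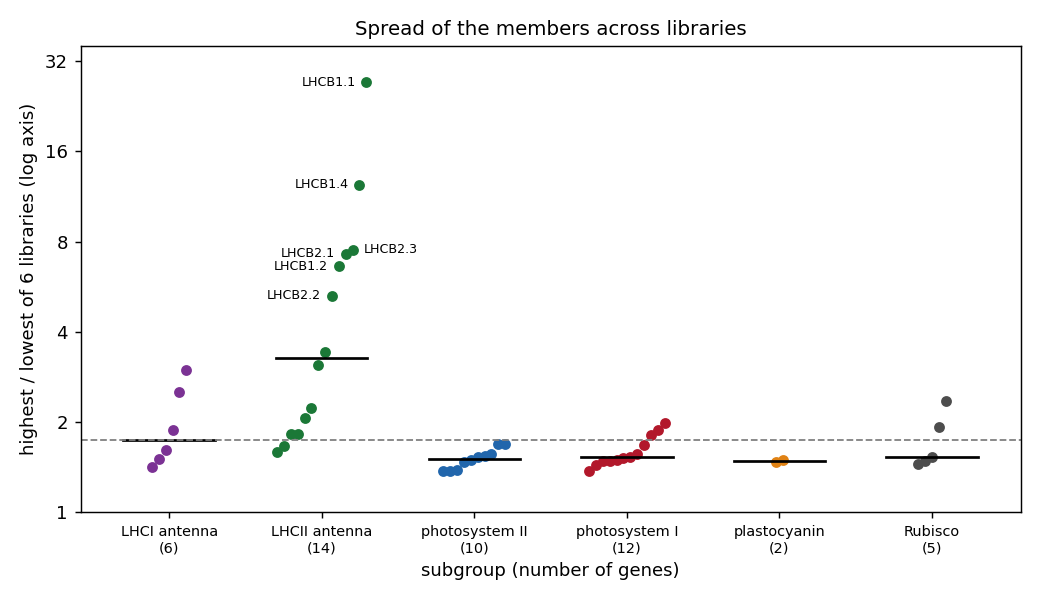
Ratio of the highest to the lowest of the 6 libraries for each member (points, log axis), by subgroup. Black lines are subgroup medians and the dashed line is the median of all genes tested (1.75). The LHCII genes reach 27.2 (LHCB1.1), while the photosystem genes stay under 2.

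LHCB1.1 showed the widest spread of all members. It stood at 2497, 2055 and 112 CPM in transgenic replicates 1, 2 and 3. The same gene had 1090, 397 and 3063 CPM in wild type replicates 1, 2 and 3. Both genotypes thus had libraries with high and with low levels, and the lowest value still rested on 1572 counts. The means were 1555 ± 1268 CPM in the transgenic and 1517 ± 1383 CPM in the wild type buds (SD, n = 3 each), and the log2 fold change was 0.04 (standard error, SE, 0.96, adjusted p = 0.995 by edgeR).

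LHCB1.3, the most abundant antenna transcript, ran at 13981, 8381 and 6267 CPM in the transgenic and at 7858, 8422 and 9707 CPM in the wild type replicates, and its log2 fold change was 0.14 (SE 0.35, adjusted p = 0.955 by edgeR). Its range was 2.23-fold, against 27.2-fold for its neighbour LHCB1.1. Transcripts of LHCB1.1 amounted to 0.1786, 0.2452 and 0.01795 times those of LHCB1.3 in the transgenic replicates and to 0.1387, 0.04713 and 0.3155 times in the wild type replicates. This ratio does not depend on how the libraries are scaled, and the copies were used in unequal proportion in different libraries of 1 genotype.

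LHCB1.4, the weakest copy, had 124, 51.3 and 9.94 CPM in the transgenic and 31.2, 11.1 and 32.6 CPM in the wild type replicates. Transgenic replicate 1 stood highest and transgenic replicate 3 lowest, at 139 counts. The log2 fold change of 1.3 was the largest of the members (SE 0.73, adjusted p = 0.748 by edgeR), and without transgenic replicate 1 it was 0.29.

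LHCB1.5 had 6705, 4266 and 2155 CPM in the transgenic and 3788, 3311 and 6263 CPM in the wild type replicates, with a log2 fold change of -0.03 (SE 0.42, adjusted p = 0.993 by edgeR). Transgenic replicate 3 was lowest and wild type replicate 2 next to it, as for LHCB1.1. All of its 50-base stretches also occur on the opposite strand in an overlapping RefSeq transcript that is not a row of the count tables, so its counts are uncertain. The other LHCII genes with a ratio over 2 were LHCB1.2 (6.63), LHCB2.1 (7.28), LHCB2.2 (5.28), LHCB2.3 (7.51), LHCB3 (3.42) and LHCB5 (2.07). LHCB2 and LHCB3 proteins join LHCB1 in the LHCII trimers, and LHCB5 is a monomeric antenna protein.

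LHCB4.3 went its own way. It encodes a variant of the monomeric antenna protein CP29 and had 310, 456 and 433 CPM in the transgenic and 253, 375 and 251 CPM in the wild type replicates. Transgenic replicate 3, where 12 of the 14 LHCII genes had their lowest level, held its second highest level. The log2 fold change was 0.45 (SE 0.21, adjusted p = 0.723 by edgeR). Its coding sequence is 65.0% identical with that of LHCB4.1 and 65.3% with that of LHCB4.2, which had ratios of 1.59 and 1.83 between libraries.

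**Figure D2:**
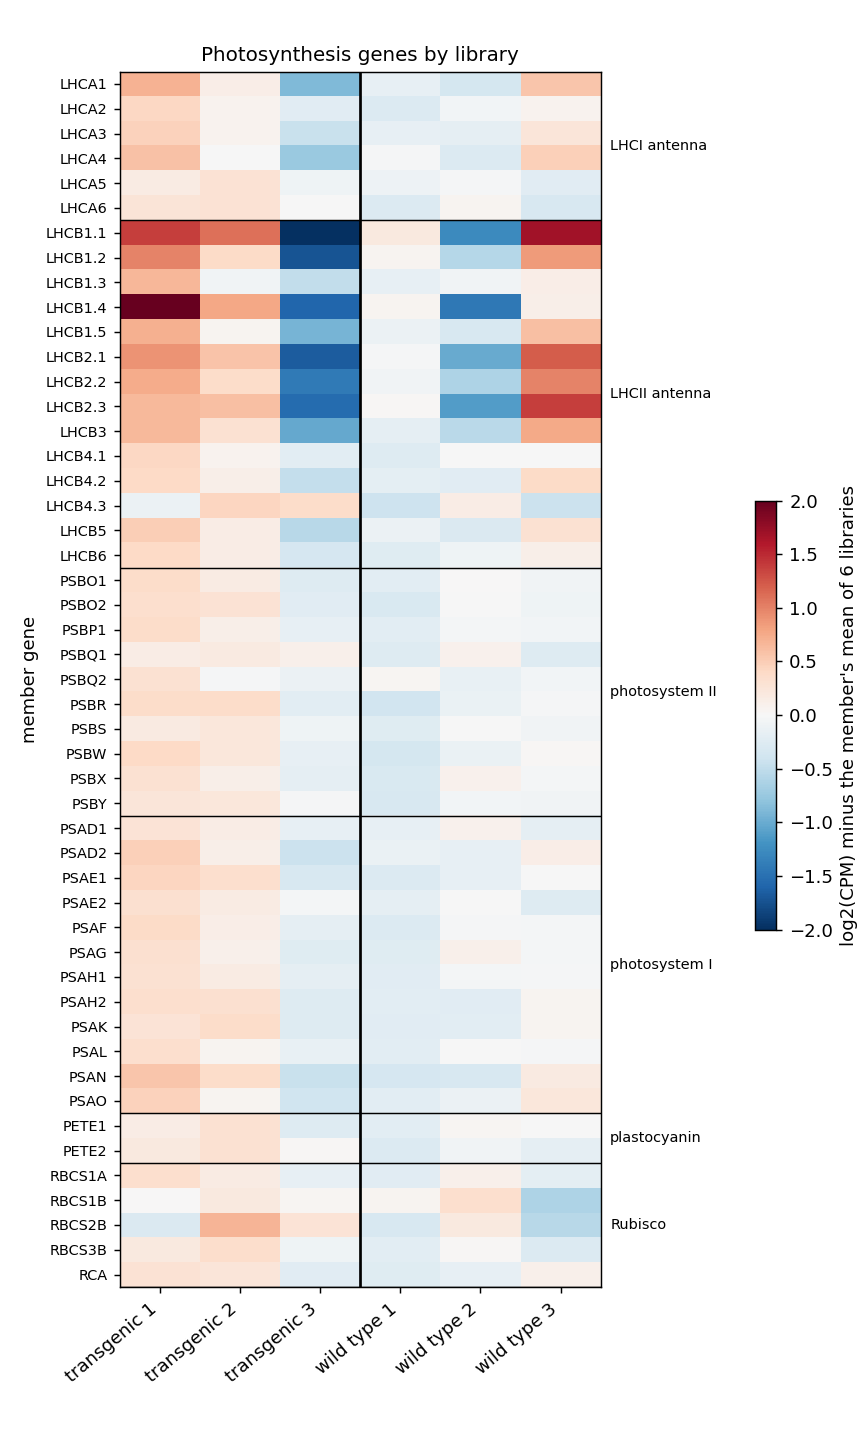
Level of each of the 49 members in each library, as log2 CPM minus the mean of the member over the 6 libraries, with the transgenic replicates left of the wild type replicates. Colors end at -2 and 2. Most LHCII rows are red in transgenic replicate 1 and wild type replicate 3 and blue in transgenic replicate 3, and LHCB4.3 and RBCS2B depart from them.

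The libraries stood in a repeated order among the members. Of the 49 genes, 33 had their highest level in transgenic replicate 1, 10 in transgenic replicate 2, 1 in wild type replicate 2 and 5 in wild type replicate 3. Transgenic replicate 1 was thus highest for 67.3% of the members, against 15.8% of all genes tested. The lowest level was in transgenic replicate 3 for 23 members and in wild type replicates 1, 2 and 3 for 16, 1 and 9 members. Over all genes tested, it was in transgenic replicate 3 for 11.8% and in wild type replicates 1, 2 and 3 for 13.7%, 15.2% and 23.0%. Among the 14 LHCII genes, transgenic replicate 3 was the lowest library for 12. Among the 10 photosystem II genes, wild type replicate 1 was the lowest for 7, and among the 5 Rubisco genes wild type replicate 3 was the lowest for 3. Members share these libraries and their scaling, so they are not independent of each other.

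Genes of the circadian clock differed between the same libraries. LATE ELONGATED HYPOCOTYL (LHY), a transcription factor of the morning, stood at 2.48, 6.48 and 0.143 CPM in the transgenic and at 1.03, 0.150 and 32.4 CPM in the wild type replicates. CIRCADIAN CLOCK ASSOCIATED 1 (CCA1), its paralog, stood at 3.85, 1.68 and 0.358 CPM in the transgenic and at 1.48, 0.451 and 13.2 CPM in the wild type replicates. Both were lowest where LHCB1.1 was lowest, in transgenic replicate 3 and wild type replicate 2, and highest in wild type replicate 3, where LHCB1.1 was highest. Of the 14 LHCII genes, however, 8 were highest in transgenic replicate 1 and 5 in wild type replicate 3. The 2 lowest LHY values rest on 2 counts each. The evening gene TOC1 stood the other way, at 51.0, 43.0 and 101 CPM in the transgenic and 70.7, 88.8 and 23.3 CPM in the wild type replicates. The light-stress gene ELIP2, whose product is related to the antenna proteins, had 6.73, 11.7 and 3.58 CPM in the transgenic and 4.45, 2.03 and 25.8 CPM in the wild type replicates. ELIP1, another light-stress gene, had 11.7, 31.0 and 12.9 CPM in the transgenic and 12.4, 8.56 and 67.6 CPM in the wild type replicates. For ELIP1, transgenic replicate 3 thus lay above transgenic replicate 1. Of 4 dark-induced genes, 3 had their highest level in transgenic replicate 1, against 15.8% of all genes tested. The part of the clock or of the hour of sampling in the spread of the antenna genes was not tested.

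**Figure D3:**
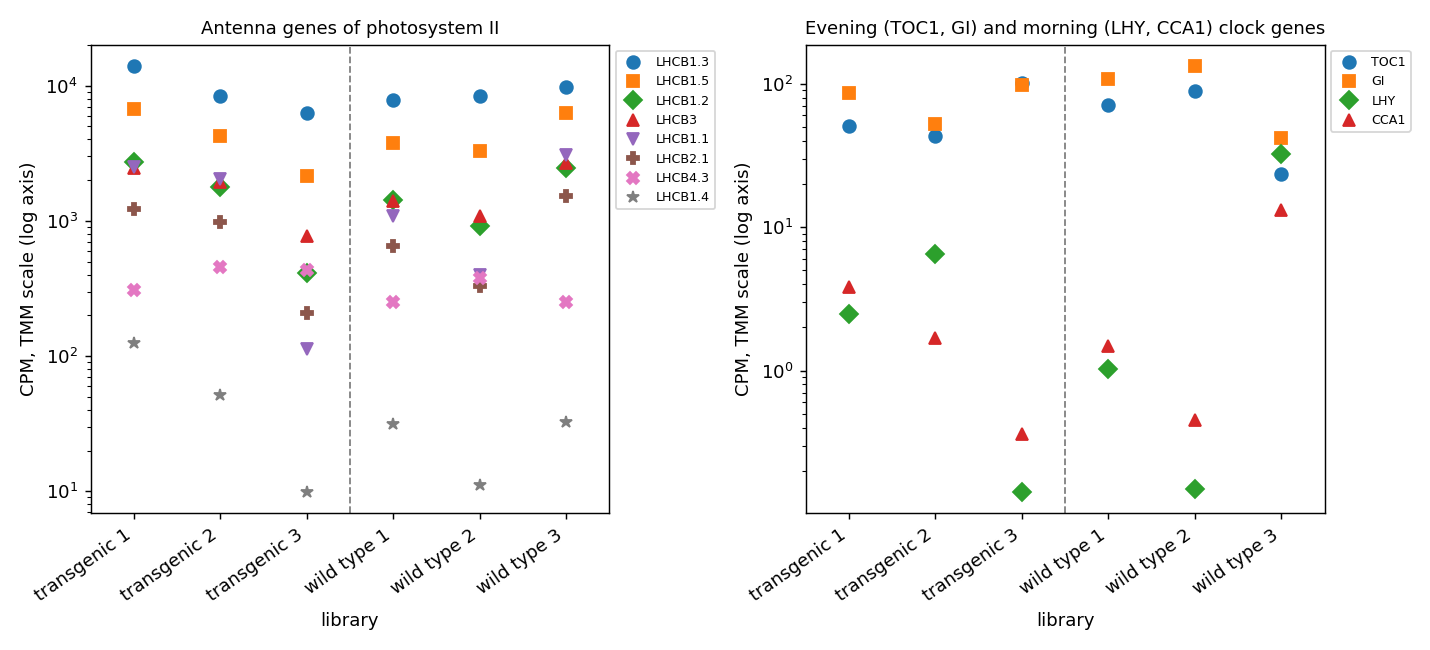
CPM after TMM scaling (log axes) in each library, with transgenic replicates left of the dashed line and wild type replicates right of it. Left, 8 LHCII antenna genes; right, the evening genes TOC1 and GI and the morning genes LHY and CCA1. LHCB1.1 stands at 112 CPM in transgenic replicate 3, where LHY stands at 0.143 CPM and TOC1 at 101 CPM.

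In the LHCI antenna the spread was smaller and followed the LHCII genes only for part of the subgroup. LHCA1, with 3855, 2608 and 1291 CPM in the transgenic and 2108, 1852 and 3498 CPM in the wild type replicates, had the largest ratio of the subgroup (2.99). LHCA3 had 2638, 2009 and 1404 CPM in the transgenic and 1693, 1685 and 2261 CPM in the wild type replicates. Both encode abundant antenna proteins of photosystem I. Their log2 fold changes were 0.06 (SE 0.40) and 0.10 (SE 0.26), and each turned negative without transgenic replicate 1, at -0.35 and -0.14.

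LHCA5 and LHCA6, minor antenna proteins that link photosystem I with the NADH dehydrogenase-like complex, had a flatter pattern. LHCA5 had 133, 144 and 111 CPM in the transgenic and 110, 116 and 101 CPM in the wild type replicates, with a log2 fold change of 0.25 (SE 0.14, adjusted p = 0.747 by edgeR). LHCA6 had 87.3, 88.8 and 72.5 CPM in the transgenic and 60.3, 76.2 and 58.8 CPM in the wild type replicates. Its log2 fold change was 0.35 (SE 0.15, adjusted p = 0.722 by edgeR), and it was the only member with an unadjusted p under 0.05 (0.0499). The genotypes overlapped in 1 library each, since transgenic replicate 3 lay below wild type replicate 2.

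None of the 49 members was called between the genotypes at an adjusted p under 0.05, by edgeR, DESeq2 or voom, and the smallest adjusted p by edgeR was 0.722. Beside this stand 0.0161% of all genes tested that were called. At an unadjusted p under 0.05, edgeR gave 1 member higher and 0 lower in the transgenic buds, where 2.57% of all genes tested were higher and 4.26% lower at that threshold. DESeq2 gave 2 members and voom 4, all higher, but their shares of all genes at that threshold are not given here. At an unadjusted p under 0.01 over all genes, DESeq2 gave 399 genes and voom 386, against 269 by edgeR. The SEs of the members ran between 0.14 and 0.96 on the log2 scale, so differences of that size were not detectable with 3 libraries a genotype. Differences of several SEs could go uncalled as well. The regulator PIF5, described below, had a log2 fold change of -0.82 with an SE of 0.22 and an adjusted p of 0.641 by edgeR.

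The members' log2 fold changes were mostly small and positive. In the transgenic buds 44 of the 49 were higher and 5 were lower. Their median log2 fold change was 0.19, against 47.9% higher and a median of -0.01 over all genes tested. The 5 lower members were LHCA4, LHCB1.5, LHCB2.1, LHCB2.2 and LHCB2.3, all antenna genes, with values between -0.25 and -0.03. The 3 transgenic libraries all lay above the 3 wild type libraries for 3 members, PSBQ1, PSBY and PETE2, where 5.57% of all genes tested did so, and below them for 0 members, against 6.62%. The median rested on single libraries, since it was 0.08 with 31 members higher without transgenic replicate 1 and 0.35 with 49 higher without transgenic replicate 3. With the clock score (the mean log2 level of 3 morning genes minus that of 4 evening genes) as a covariate, 49 members were higher, at a median of 0.22, and 0 were called.

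**Figure D4:**
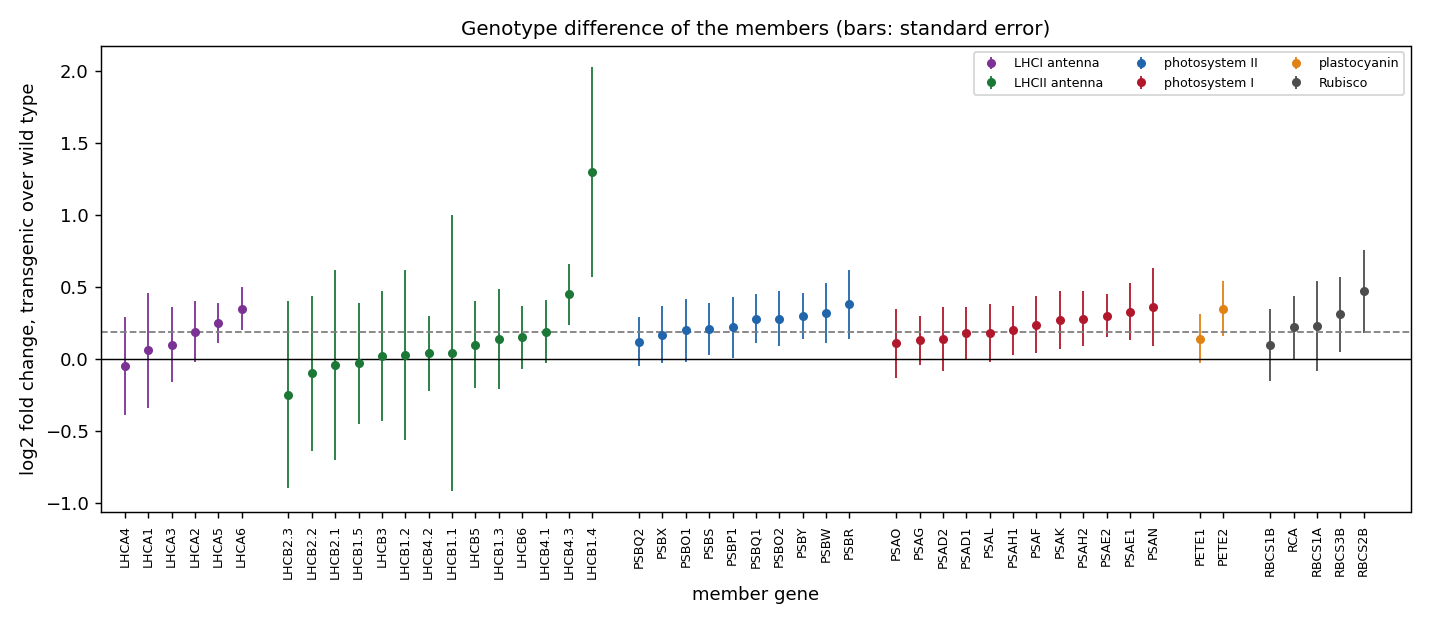
Log2 fold change of each member, transgenic over wild type, with its SE (standard error) from edgeR's quasi-likelihood fit (3 libraries a genotype), colored by subgroup. The dashed line is the median of the 49 members (0.19). LHCB1.4 is the highest point at 1.3 and LHCB1.1 has the longest bar, with an SE of 0.96.

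By subgroup, the sum of the LHCII genes was 28791 ± 12531 CPM in the transgenic and 27173 ± 7645 CPM in the wild type buds (SD, n = 3 each), and 10 of 14 genes were higher at a median log2 fold change of 0.04. This median ran between -0.29 without transgenic replicate 1 and 0.41 without wild type replicate 3. The LHCI genes summed to 8394 ± 3114 CPM in the transgenic and 7968 ± 1847 CPM in the wild type buds (SD, n = 3 each), with 5 of 6 higher and a median of 0.15, which ran between -0.07 without transgenic replicate 1 and 0.34 without transgenic replicate 3. For both antenna subgroups the SD within either genotype was larger than the difference between the genotypes. For the photosystem II and photosystem I sums given below, this held for the transgenic SD only.

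All 10 photosystem II genes were higher in the transgenic buds in value, at a median log2 fold change of 0.25, with SEs of 0.16 to 0.24. Their sum was 17549 ± 2908 CPM in the transgenic and 14701 ± 1251 CPM in the wild type buds (SD, n = 3 each). PSBR, a small subunit of photosystem II near the oxygen-evolving complex, had 3850, 3842 and 2571 CPM in the transgenic and 2277, 2701 and 2932 CPM in the wild type replicates. Its log2 fold change of 0.38 was the highest of the subgroup (SE 0.24, adjusted p = 0.773 by edgeR).

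PSBO1, the main manganese-stabilizing protein of the oxygen-evolving complex, had 3501, 3032 and 2276 CPM in the transgenic and 2333, 2728 and 2594 CPM in the wild type replicates, with a log2 fold change of 0.20 (SE 0.22, adjusted p = 0.873 by edgeR). PSBW, a small subunit of photosystem II, with 2077, 1833 and 1401 CPM in the transgenic and 1226, 1433 and 1595 CPM in the wild type replicates, had a log2 fold change of 0.32 (SE 0.21, adjusted p = 0.775 by edgeR). In these genes transgenic replicates 1 and 2 stood above every other library, and transgenic replicate 3 stood among the wild type values or below them.

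PSBQ1, another protein of the oxygen-evolving complex, was the steadiest of the subgroup within the transgenic buds, at 1202, 1236 and 1167 CPM, and had 909, 1154 and 904 CPM in the wild type replicates. The genotypes did not overlap, but only narrowly, at 1167 against 1154 CPM. The log2 fold change was 0.28 (SE 0.17, adjusted p = 0.760 by edgeR). PSBY, a small photosystem II protein, had 912, 903 and 756 CPM in the transgenic and 619, 743 and 733 CPM in the wild type replicates. Here too the genotypes did not overlap, by a margin that was small beside the spread, and the log2 fold change was 0.30 (SE 0.16, adjusted p = 0.743 by edgeR).

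The 12 photosystem I genes gave the same count, 12 of 12 higher in value at a median log2 fold change of 0.22, and their sum was 10141 ± 2079 CPM in the transgenic and 8721 ± 738 CPM in the wild type buds (SD, n = 3 each). PSAL, which helps dock LHCII to photosystem I, had 2626, 2146 and 1871 CPM in the transgenic and 1780, 2054 and 2041 CPM in the wild type replicates. PSAF, which takes part in plastocyanin binding, had 2025, 1706 and 1374 CPM in the transgenic and 1292, 1531 and 1514 CPM in the wild type replicates. Their log2 fold changes were 0.18 (SE 0.20) and 0.24 (SE 0.20), and in both genes the genotypes overlapped. Without transgenic replicate 1 these values were 0.04 and 0.09, and the median of the 12 genes was 0.09, against 0.36 without transgenic replicate 3.

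PSAN, a lumenal subunit, had the widest range of the subgroup (1.99), with 1355, 1197 and 681 CPM in the transgenic and 733, 739 and 1046 CPM in the wild type replicates and a log2 fold change of 0.36 (SE 0.27, adjusted p = 0.801 by edgeR). PSAE1 and PSAE2 encode the stromal subunit E near the ferredoxin site. PSAE2 had 481, 435 and 377 CPM in the transgenic and 342, 385 and 325 CPM in the wild type replicates, with a log2 fold change of 0.30 (SE 0.15, adjusted p = 0.743 by edgeR). PSAE1 had 175, 165 and 105 CPM in the transgenic and 108, 116 and 130 CPM in the wild type replicates, with a log2 fold change of 0.33 (SE 0.20, adjusted p = 0.760 by edgeR). The 2 copies differed in transgenic replicate 3, which lay above wild type replicates 1 and 3 for PSAE2. For PSAE1 it was the lowest library, narrowly, at 105 against 108 CPM in wild type replicate 1. PSAE1 shares 29.1% of its 50-base stretches with an overlapping gene on the opposite strand, against 2.51% for PSAE2, so its counts are uncertain.

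For plastocyanin, PETE2 made up most of the transcripts. It had 2837, 3061 and 2502 CPM in the transgenic and 2042, 2365 and 2172 CPM in the wild type replicates. All transgenic libraries lay above all wild type libraries, and the log2 fold change was 0.35 (SE 0.19, adjusted p = 0.745 by edgeR). PETE1 had 200, 223 and 152 CPM in the transgenic and 156, 187 and 180 CPM in the wild type replicates, with a log2 fold change of 0.14 (SE 0.17, adjusted p = 0.890 by edgeR), and its genotypes overlapped.

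For 3 of the 5 Rubisco genes wild type replicate 3 was the lowest library, as it was for 8 of the 13 Calvin cycle genes (61.5%), against 23.0% of all genes tested. RBCS1A had 15894, 14078 and 11223 CPM in the transgenic and 10719, 13517 and 10978 CPM in the wild type replicates, with a log2 fold change of 0.23 (SE 0.31, adjusted p = 0.898 by edgeR). RBCS3B had 8528, 9490 and 7027 CPM in the transgenic and 6407, 7584 and 6187 CPM in the wild type replicates, with a log2 fold change of 0.31 (SE 0.26, adjusted p = 0.827 by edgeR). Both overlapped between the genotypes.

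RBCS2B (AT5G38420, chr5:15380907-15382071, minus strand) had the widest range of the subgroup (2.36), at 1330, 2608 and 1964 CPM in the transgenic and 1305, 1858 and 1103 CPM in the wild type replicates. It was low in transgenic replicate 1 and wild type replicate 3, where most LHCII genes were high, and also in wild type replicate 1. The log2 fold change was 0.47 (SE 0.29, adjusted p = 0.769 by edgeR), and it was 0.22 without transgenic replicate 2 and 0.71 without wild type replicate 2. RBCS1B, RBCS2B and RBCS3B lie in a row on chromosome 5 with 96.7% to 97.3% identical coding sequences, and RBCS2B shares 21.4% and RBCS3B 18.3% of their 50-base stretches with other transcripts, so their separate counts are partly uncertain. Relative to RBCS1A, whose coding sequence is 90.1% identical, RBCS2B transcripts amounted to 0.08371, 0.1853 and 0.175 times in the transgenic and 0.1217, 0.1374 and 0.1005 times in the wild type replicates. This copy thus had a smaller part in transgenic replicate 1 than in any other library.

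Other nuclear genes of the same processes showed small positive values as well. Of the 13 Calvin cycle genes, 13 were higher in value, at a median log2 fold change of 0.30. For 5 of them all transgenic libraries lay above all wild type libraries, against 5.57% of all genes tested. CFBP1, the chloroplast fructose bisphosphatase, had 280 ± 14.5 CPM in the transgenic and 217 ± 18.0 CPM in the wild type buds (SD, n = 3 each), a log2 fold change of 0.37 (SE 0.13, adjusted p = 0.720 by edgeR). SBPASE, PRK and RPE, other enzymes of the cycle, had 0.35, 0.31 and 0.27. Of the 11 genes of other electron carriers and the ATP synthase, 10 were higher, at a median of 0.29. Among these FNR1, a ferredoxin-NADP reductase, had 0.38, FD1 had 0.41, PETC had 0.31 and ATPD had 0.29, and FNR1 is also in the study's own list of changed genes, which was chosen on these samples. None of these genes was called by edgeR, and 2 of the 13 and 2 of the 11 were higher at an unadjusted p under 0.05, where 2.57% of all genes tested were.

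Of 12 chlorophyll synthesis genes tested, 9 were higher and 3 lower in value (median log2 fold change 0.17), and PORA was too low to be tested. CHLI1, CHLM, CHLG and PORC, enzymes of the chlorophyll branch, had 0.22, 0.21, 0.23 and 0.17. The protochlorophyllide reductase gene PORB had the widest range of the genes tested in the list, at 4.43-fold between libraries. No gene of the list had an unadjusted p under 0.05.

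Among 8 regulators tested, 4 were higher and 4 lower, and CGA1 was too low to be tested. GLK1, which activates genes of chlorophyll synthesis and the antenna, had 81.1, 104 and 71.3 CPM in the transgenic and 53.3, 65.8 and 70.7 CPM in the wild type replicates, separated by less than 1 CPM and with a log2 fold change of 0.44 (SE 0.18, adjusted p = 0.722 by edgeR). GLK2, its paralog, had 23.4, 18.6 and 5.37 CPM in the transgenic and 8.12, 5.63 and 20.9 CPM in the wild type replicates. GLK2 was low in transgenic replicate 3 and wild type replicate 2, as LHCB1.1 was, and GLK1 was not. PIF5, a phytochrome-interacting factor, averaged 8.12 ± 1.85 CPM in the transgenic and 14.3 ± 1.55 CPM in the wild type buds (SD, n = 3 each), without overlap and with a log2 fold change of -0.82 (SE 0.22, adjusted p = 0.641 by edgeR). PIF1 had a log2 fold change of 0.39 (SE 0.26).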

How the data were processed

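The deposited values are raw counts per gene, with 1 table per library. The authors made them by aligning reads with Hisat2 to a reference that joins the Arabidopsis genome and the transgene's coding sequence, and the submitters' processing notes also name TAIR10, featureCounts and DESeq2. Their versions, strand and multiply mapped reads are not given in the sources. The members and gene lists were chosen with earlier results of these data known, so a list has no p-value.

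After edgeR's filter on low counts by genotype (at least 10 counts, total of at least 15) and TMM scaling (factors 0.924 to 1.03 for the transgenic and 0.957 to 1.06 for the wild type libraries), genotype was the only term of edgeR's quasi-likelihood fit (version 4.0.16 in R 4.3.3). P-values were adjusted by Benjamini-Hochberg over 18642 genes, and the fit was tested on simulated data. Alternatives were RLE size factors, no filter, DESeq2 1.42.0, voom with quality weights (limma 3.58.1), a replicate block, a clock score covariate and leaving out each library. No pair of libraries of 1 genotype agreed within sampling noise (chi-square per degree of freedom 14.7 to 52.8).

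Genes printed with all values are, in each subgroup, the 2 of highest mean CPM, the 2 of smallest unadjusted p and the 1 of largest ratio between libraries (mean CPM of at least 1), and of each other pathway list up to 4 of smallest p. Sequences and coordinates are RefSeq's for TAIR10.1 (Biopython 1.88), in which 49 of 49 members matched by locus. Plots used matplotlib 3.10.9 and Python 3.11.15.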

Additional observations from a re-analysis of the deposited data

How the results depend on the processing

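No member was called under any of the 12 alternatives, whose smallest adjusted p for a member ran between 0.436 and 1.0. The 1 member with an unadjusted p under 0.05 became 0 with no filter on low counts, 2 with the replicate block, 2 with the clock score, 2 with DESeq2 and 4 with voom, and ran between 0 and 7 when 1 library was left out. The share of all genes at that threshold is not given for these alternatives, so an excess of members cannot be read from these counts. The 3 genes called became 2 with RLE size factors, 0 with the replicate block, 62 with DESeq2 and 0 with voom. They ran between 0 and 5 without 1 library. The 269 genes at an unadjusted p under 0.01 became 165 with the block and 580 with the clock score, and ran between 124 and 516 without 1 library. The members' median log2 fold change of 0.19 stayed positive in all 12 alternatives and ran between 0.08 and 0.35 when 1 library was left out. Of 480 values of the 40 named genes under the alternatives, 13 changed sign, none of them a called gene. LHCA1 ran between -0.35 and 0.38, LHCA3 between -0.14 and 0.31, LHCB1.3 between -0.24 and 0.37, LHCB1.5 between -0.48 and 0.30 and LHCB1.1 between -0.49 and 1.06 when 1 library was left out. LHCB1.5 was 0.11 with the clock score, and LHCB1.1 was -0.31 with voom. The cause was not tested. The replicate numbers did not pair the samples (correlations of deviations -0.0756, -0.0983 and -0.351 for numbers 1, 2 and 3), so the replicate block result, at a median of 0.18, is given here only.

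With 3 libraries a genotype, the SEs of the LHCII log2 fold changes ran between 0.21 and 0.96, and differences of the size of a gene's own SE could not be seen. Larger differences, of several SEs, could go uncalled as well, as for PIF5. Near-identical copies, overlapping genes on the opposite strand and the unknown hour of sampling limit the single values. Among the named genes, the RLE factors changed no call and no sign.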
